A study of Mus musculus with 9 samples.

Results

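Solute carriers are the membrane proteins that move small molecules across the plasma membrane and the membranes of organelles. Their liver expression was compared across 3 mouse models: the control Cpr-lox, and liver-Cpr-null and Cpr-low, with altered NADPH-cytochrome P450 reductase (Cpr). The genes were taken by name, as those whose symbol in the array's annotation begins with Slc and a digit, apart from Slc10a1, Slc27a5, Slc25a20, Slc1a2 and Slc7a11. A gene also had to be bright enough, with its mean signal over the 9 arrays in the upper 60% of probe sets. Of 257 carriers with a probe set of their own 190 were tested, among 8879 tested genes of 12393 with a named probe set, and 67 fell below the brightness threshold. Each gene was assigned to 1 of 13 classes, as a rule by its gene family and the substrate that family is best known to carry. A class can therefore hold members with other substrates, and the mitochondrial carriers are kept together as a family. The tested set holds 3 genes that share the name but are not carriers, the scaffold proteins Slc9a3r1 and Slc9a3r2 and the adaptor Slc4a1ap. The tested genes were thus selected on their mean signal over all arrays, so levels are given below as a description only. Differences between the models were no part of that rule, although members and classes were chosen with earlier results of these data known.

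All animals were 2-month-old males on a mixed C57BL/6 and 129/Sv background, 8 or 9 per model, and liver RNA was combined into 3 independent pools per model, each measured on 1 Affymetrix MOE430A array. Cpr is the electron donor of cytochrome P450 enzymes in the endoplasmic reticulum. By their names, liver-Cpr-null animals lack it in liver and Cpr-low animals have less of it, and Cpr-lox animals served as controls. In the published strains of these names, given here as background, the Cpr-lox gene carries loxP sites and the liver-specific deletion uses Cre under the albumin promoter, which is active in hepatocytes, while Cpr-low mice carry a hypomorphic allele in every tissue. The sources used here do not state these constructs, nor whether pools share mice, and the p-values therefore reflect pool-to-pool spread alone, which may be technical.

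Carriers of the liver serve its main tasks. Facilitative glucose transporters let sugar in and out of the hepatocyte, sodium-coupled and exchange carriers take up amino acids for gluconeogenesis and the urea cycle, and organic ion carriers of the sinusoidal and canalicular membranes handle drugs, carnitine and bile constituents. Zinc and iron importers and exporters control metal stores, and the mitochondrial carrier family moves nucleotides, amino acids, phosphate, citrate and malate across the inner mitochondrial membrane, so that it links the cytosol with oxidation, the urea cycle and the transfer of reducing equivalents.

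Several facts of the arrays stand beside every comparison. Hybridization times stand in the fluidics section of the file headers, and gaps of over 30 minutes between them were used to divide the 9 arrays into 3 groups, called fluidics rounds here, a division the headers do not themselves state. The 3 Cpr-lox pools and Cpr-low pool 1 were in the first, Cpr-low pools 2 and 3 and liver-Cpr-null pools 1 and 2 in the second, 102 to 109 minutes later, and liver-Cpr-null pool 3 in the last, at 193 minutes. No round held both Cpr-lox and liver-Cpr-null arrays, so every value against Cpr-lox that takes the round into account rests on Cpr-low pool 1. The ratio of 3' to 5' actin signal, a measure of RNA integrity and amplification, was 1.62 to 1.99 in liver-Cpr-null and 1.17 to 1.43 in the remaining pools. The same ratio for Gapdh was 2.34 to 2.48 in liver-Cpr-null, 2.6 to 2.79 in Cpr-lox and 2.36 to 2.72 in Cpr-low. Against Cpr-lox the actin and Gapdh ratios thus went in opposite directions. Of 12 tested Kupffer cell markers 10 rose in liver-Cpr-null against Cpr-lox, with a summed signal of 10883 to 14189 against 8054 to 8555, and 0 of 12 changed in Cpr-low, with sums of 7360 to 8185. Of 11 tested hepatocyte markers 5 fell in liver-Cpr-null, with a summed signal of 157868 to 164234 against 179722 to 185278, and 1 fell in Cpr-low, with sums of 178561 to 183234. Of 8 tested endothelial markers 2 rose in Cpr-low, Clec4g and Ehd3, with a summed signal of 4690 to 5126 against 3997 to 4446 in Cpr-lox. Of 2 tested erythroid markers Alas2 rose there (0.71 on the log2 scale, adjusted p = 0.00114), with a summed signal of 1623 to 1871 against 1014 to 1222. The sum includes the other marker, Slc4a1, which is itself a tested carrier and was called in no comparison. In liver-Cpr-null 0 of 8 endothelial markers were called, 1 of 8 of stellate cells and matrix rose, and so did the leukocyte marker Ptprc. The part of these differences in the carrier results was not tested, and in whole liver fewer cells of a type and less RNA per cell cannot be told apart.

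Levels of the tested carriers ran from 129 to 15620 on the scaled signal scale, with a median of 365 against 368 for all tested genes. Signals of different probe sets are not on a common scale per molecule, so no gene's level is set against another's here, and brightness serves only to say which genes the arrays could measure. The mitochondrial carrier family had a median of 702 over 28 tested genes of 32 on the array, and it held probe sets near the top of the range for Slc25a39, a carrier of glutathione. Amino acid and peptide carriers had a median of 289 over 29 tested genes of 48, and carriers of inorganic ions a median of 259.9 over 24 of 38. In the metal and heme class 25 of 27 genes were tested. Just inside the threshold, a signal of 128, were Slc7a1, at 130.3, Slc26a4, at 129.8, and Slc1a5, at 129. Just outside were Slc46a2, at 124, Slc2a10, at 122, and Slc7a9, at 121.

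**Figure D1:**
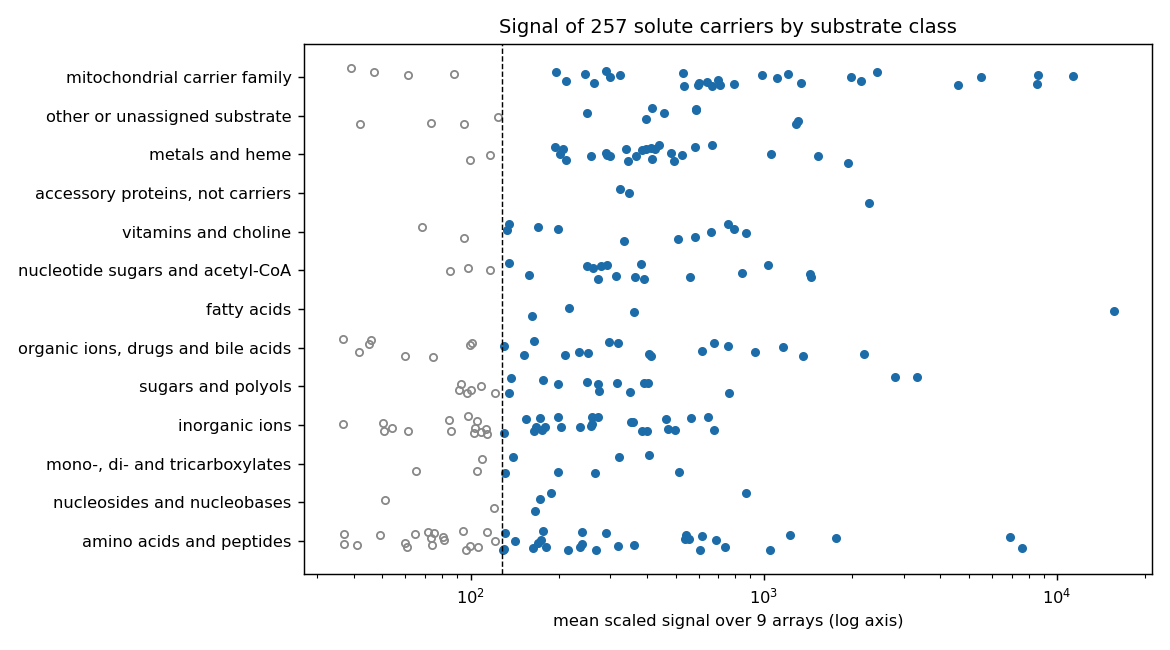
Mean scaled signal over the 9 arrays (log axis) of the 257 solute carriers, 1 point a gene, by substrate class. Filled points are the 190 tested genes and open points the 67 below the brightness threshold (dashed line at 128); the points run up to 15620, the probe set of Slc27a2.

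Across the whole family the models differed in few carriers. Changes are given throughout as log2 fold changes ± SE, signals of a model in the order of pools 1 to 3, and a gene is said to rise, fall or be called only where limma's adjusted p was under 0.05. In liver-Cpr-null against Cpr-lox 19 of 190 passed an adjusted p of 0.05 in the fit of all genes, 10% against a background of 7.1% of all tested genes. Of these 12 fell, 6.32% against a background of 3.44%, and 7 rose, 3.68% against 3.66%. In Cpr-low against Cpr-lox 12 of 190 changed, 6.32% against a background of 5.79%, with 7 lower (background 3.48%) and 5 higher (background 2.31%), so the share of changed carriers was close to that of all genes. Between the models 20 carriers differed, 10.5% against a background of 8.42%, with 12 lower in liver-Cpr-null (background 3.76%) and 8 higher (background 4.66%). Both comparisons with Cpr-lox share their control pools. Pools of liver-Cpr-null and Cpr-lox did not overlap for 53 of 190 carriers, 27.9% against a background of 25.6%. The same held for 47 carriers between Cpr-low and Cpr-lox, 24.7% against a background of 21.6%, and for 76 between the models, 40% against a background of 36.7%. A moderated F test over the 3 models called 32 of 190 carriers, 16.8% against a background of 12.1%.

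The division between falls and rises depended on how the arrays were scaled. In liver-Cpr-null against Cpr-lox the counts were 4 lower and 8 higher under median scaling, 6 and 9 as deposited, and 11 and 9 after quantile normalization. In Cpr-low against Cpr-lox quantile normalization gave 7 lower and 8 higher. Between the models median scaling gave 2 lower and 9 higher in liver-Cpr-null, the deposited values 3 and 8, and quantile normalization 10 and 9. Median log2 fold changes of the carriers were near those of all genes, at -0.04 for both in liver-Cpr-null against Cpr-lox, 0.06 and 0.04 in Cpr-low against Cpr-lox, and -0.10 and -0.08 between the models. Leaving out 1 pool moved the liver-Cpr-null count from 19 to 12 without Cpr-lox pool 2 and to 11 without liver-Cpr-null pool 1 or pool 2. The count between the models went from 20 to 6 without liver-Cpr-null pool 1, 7 without pool 2 and 9 without Cpr-low pool 2. In all 155 carriers passed in no comparison, and 35 passed in at least 1, 18.4% against a background of 14%. A call with a change of at least 1.5-fold was made for 12, 6.32% against a background of 4.32%.

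By substrate class, calls were found in 12 of 13 classes. The mitochondrial carrier family had 9 of 28 genes called in at least 1 comparison, the organic ion class 6 of 17, metals and heme 4 of 25, amino acids and peptides 3 of 29, and sugars and polyols 3 of 14. Inorganic ions had 2 of 24, nucleotide sugars and acetyl-CoA 2 of 16, and carboxylates 1 of 7, vitamins and choline 1 of 11, fatty acids 1 of 4 and nucleosides 1 of 4. None of the 8 carriers of other or unassigned substrate passed, and 2 of the 3 accessory proteins did. Over all 8879 genes 1240 (14%) were called in at least 1 comparison. Class medians against Cpr-lox lay between -0.15 (fatty acids, and the accessory proteins) and 0.07 (other substrates) in liver-Cpr-null, and between -0.09 (fatty acids) and 0.12 (sugars) in Cpr-low. Differences among classes were not tested.

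**Figure D2:**
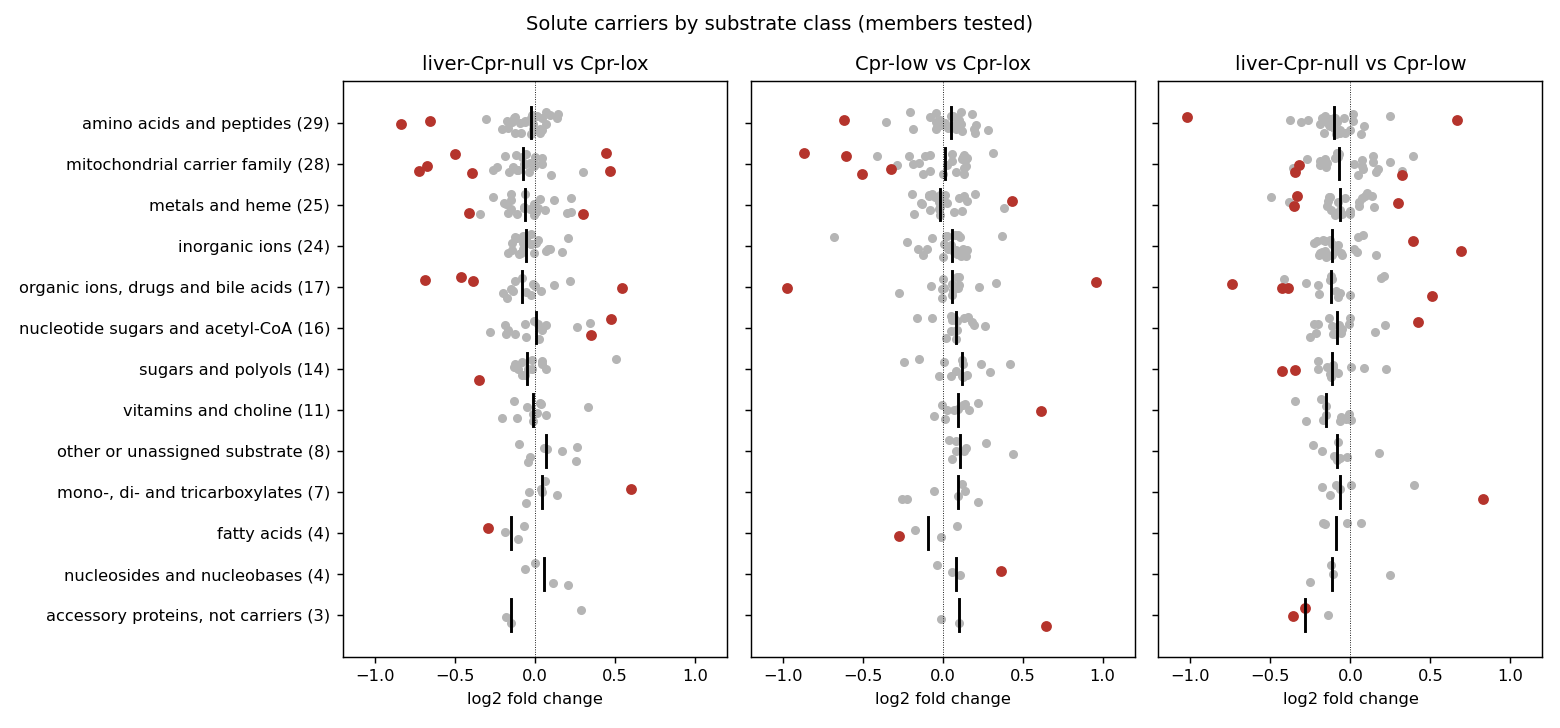
Log2 fold change of each tested carrier (points) by substrate class, with the number of genes in brackets, in the 3 comparisons. Red points passed an adjusted p of 0.05 and black bars are class medians; most points lie close to 0, and the red points number 19, 12 and 20 from left to right.

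Against Cpr-lox, 5 carriers fell in both models and 1 rose in both, and 0 moved in opposite directions. Both comparisons use the same Cpr-lox pools, all of the first round, which favours calls in the same direction. The matching counts over all tested genes were not made, so these counts are a description only. The 5 that fell move pyrimidine nucleotides (Slc25a33), glutamate (Slc25a22) and aspartate and glutamate (Slc25a13) across the mitochondrial membrane, and carnitine (Slc22a5) and long-chain fatty acids (Slc27a2) into the cell. Slc25a33 had signals of 753, 792 and 712 in the Cpr-lox pools, 375, 459 and 387 in the Cpr-low pools and 461, 417 and 470.3 in the liver-Cpr-null pools. Every pool of both models lay below every Cpr-lox pool, and the models overlapped each other. The log2 fold change was -0.72 ± 0.09, adjusted p = 0.000346 in liver-Cpr-null and -0.87 ± 0.09, adjusted p = 0.00012 in Cpr-low, and Slc25a33 was the only carrier called against Cpr-lox in both models under every alternative tried.

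As a description, the start regions are shown of the 4 carriers called the same way in both models that have a single annotated window. Slc25a22 and Slc39a11, which have several windows each, are left out. Shared regulation of these genes was not tested. Each window runs from 250 bases before to 50 after the gene's start, read 5′ to 3′ on the strand of the gene, from RefSeq on GRCm38.p6: chr4:149774218-149774517 for Slc25a33 (minus strand), chr11:53891654-53891953 for Slc22a5 (minus strand), chr6:6217124-6217423 for Slc25a13 (minus strand) and chr2:126552774-126553073 for Slc27a2 (plus strand). Capitals mark every match, on either strand, to 5 motifs. The letters searched were AGGTCA for the half-site of nuclear receptors and TGACNNNGC for the core of the antioxidant element. An E-box was read as CACGTG and a GC box as GGGCGG, and the remaining motif, the CCAAT box, by the letters of its name. Adjoining GC boxes can overlap by a base.
Slc25a33: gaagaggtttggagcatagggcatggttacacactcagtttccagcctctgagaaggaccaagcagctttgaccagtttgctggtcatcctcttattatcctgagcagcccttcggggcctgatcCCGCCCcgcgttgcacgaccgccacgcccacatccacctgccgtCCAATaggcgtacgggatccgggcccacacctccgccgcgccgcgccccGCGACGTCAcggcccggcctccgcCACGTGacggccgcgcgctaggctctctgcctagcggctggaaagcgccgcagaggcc
Slc22a5: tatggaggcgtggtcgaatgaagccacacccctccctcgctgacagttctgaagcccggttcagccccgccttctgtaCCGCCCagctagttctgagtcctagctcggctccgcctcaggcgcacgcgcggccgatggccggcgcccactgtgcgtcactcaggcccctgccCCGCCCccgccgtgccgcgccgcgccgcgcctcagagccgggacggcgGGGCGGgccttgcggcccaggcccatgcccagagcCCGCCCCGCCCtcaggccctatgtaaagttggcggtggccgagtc
Slc25a13: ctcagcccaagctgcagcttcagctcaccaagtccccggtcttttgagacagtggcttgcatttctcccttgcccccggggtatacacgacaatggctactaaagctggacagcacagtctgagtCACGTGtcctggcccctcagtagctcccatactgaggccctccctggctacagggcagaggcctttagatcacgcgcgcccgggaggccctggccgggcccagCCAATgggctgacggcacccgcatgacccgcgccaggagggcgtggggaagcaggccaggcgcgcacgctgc
Slc27a2: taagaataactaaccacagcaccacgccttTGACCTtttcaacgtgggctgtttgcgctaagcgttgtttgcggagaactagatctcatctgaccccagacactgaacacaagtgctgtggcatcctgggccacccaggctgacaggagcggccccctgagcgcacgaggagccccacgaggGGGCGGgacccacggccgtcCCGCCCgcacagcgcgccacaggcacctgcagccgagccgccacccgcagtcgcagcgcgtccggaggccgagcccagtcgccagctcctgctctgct

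The Slc25a33 window held an antioxidant element on the strand opposite to the gene, an E-box 8 bases before the gene's start, a GC box and a CCAAT box. In the Slc22a5 window the capitals are 5 GC boxes, and in the Slc25a13 window an E-box and a CCAAT box. The Slc27a2 window held a nuclear receptor half-site on the strand opposite to the gene and 2 GC boxes. No motif of the 5 was found in all 4 windows. Over 32851 windows of 300 bases, 16.3% held the half-site, 12.4% the antioxidant element, 7.15% the E-box, 35.7% the GC box and 37.4% the CCAAT box. Of the 204 windows of 148 tested carriers, the shares were 15.2%, 19.6%, 11.8%, 64.2% and 34.8% in the same order. A match describes letters in a window and is neither a binding site nor a cause of the changes above.

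Slc22a5 (OCTN2), the sodium-coupled carnitine transporter of the plasma membrane, had signals of 836, 1084 and 827 in the Cpr-lox pools, 379, 477 and 524 in the Cpr-low pools and 681, 614 and 674 in the liver-Cpr-null pools. The 3 groups were fully separate, with Cpr-low lowest. It fell in Cpr-low by 0.97 ± 0.12 on the log2 scale (adjusted p = 0.000558), a call kept under all 22 alternatives, and in liver-Cpr-null less firmly (-0.46 ± 0.12, adjusted p = 0.0418). The liver-Cpr-null call was lost under median or quantile or deposited scaling, with all 3 rounds as a block, over the mean of its probe sets or without Cpr-lox pools 1 or 2, Cpr-low pool 2 or liver-Cpr-null pools 1, 2 or 3 (adjusted p between 0.0521 and 0.177). The direct comparison put liver-Cpr-null above Cpr-low (0.51 ± 0.12, adjusted p = 0.0249). That difference was lost with the first round or all 3 rounds as a block, within the second round, over the mean of its probe sets or without Cpr-low pools 1 or 2 or liver-Cpr-null pools 1 or 3 (adjusted p between 0.0511 and 0.174). A second, dimmer probe set of the gene did not pass in any comparison, at -0.10 ± 0.09 in liver-Cpr-null and -0.15 ± 0.09 in Cpr-low.

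Slc27a2 (FATP2), a fatty acid transport protein with acyl-CoA synthetase activity and the brightest of all tested carriers, had signals of 17232, 18778 and 17200.1 in the Cpr-lox pools, 13897, 15261 and 14829 in the Cpr-low pools and 14824, 14169 and 14374 in the liver-Cpr-null pools. All pools of both models lay below all Cpr-lox pools, and the models overlapped. The falls were modest, -0.29 ± 0.06, adjusted p = 0.00858 in liver-Cpr-null and -0.27 ± 0.06, adjusted p = 0.0145 in Cpr-low. The liver-Cpr-null fall was lost under median scaling or with the first round or all 3 rounds as a block (adjusted p between 0.0621 and 0.101). The Cpr-low fall was lost within the first round or without Cpr-lox pool 2 or Cpr-low pool 1 (adjusted p between 0.0539 and 0.0745). The other 3 tested fatty acid transport proteins passed in no comparison.

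In the mitochondrial carrier family, Slc25a22, a glutamate carrier, had signals of 2764, 4118 and 2777 in the Cpr-lox pools, 1919, 2142 and 2175 in the Cpr-low pools and 2096, 1953 and 1889 in the liver-Cpr-null pools. Both models lay below Cpr-lox, in which pool 2 stood above pools 1 and 3, and the falls were -0.67 ± 0.13, adjusted p = 0.00702 and -0.60 ± 0.13, adjusted p = 0.0148. Slc25a13 (citrin), the liver aspartate and glutamate carrier of the malate-aspartate shuttle and the urea cycle, had signals of 2664, 2412 and 2489.7 in the Cpr-lox pools, 1801, 2097 and 2168 in the Cpr-low pools and 1919, 1903 and 1916 in the liver-Cpr-null pools. Its groups against Cpr-lox did not overlap either, at -0.40 ± 0.08, adjusted p = 0.0108 in liver-Cpr-null and -0.32 ± 0.08, adjusted p = 0.0394 in Cpr-low. The Slc25a22 call in liver-Cpr-null was lost with the first round or all 3 rounds as a block (adjusted p between 0.0976 and 0.152). In Cpr-low it was lost within the first round or without Cpr-low pool 1 (adjusted p between 0.0694 and 0.0716). The Slc25a13 call in liver-Cpr-null was lost under median scaling (adjusted p = 0.0962). Its Cpr-low call was lost under median or deposited scaling or without Cpr-lox pools 1, 2 or 3, Cpr-low pools 1 or 2 or liver-Cpr-null pools 1, 2 or 3 (adjusted p between 0.0515 and 0.128).

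Slc25a10, the dicarboxylate carrier that exchanges malate and succinate for phosphate, moved the other way. Its signals were 1806, 1627 and 1747 in the Cpr-lox pools, 1938, 1888 and 1819.7 in the Cpr-low pools and 2351, 2314 and 2409.7 in the liver-Cpr-null pools, with liver-Cpr-null above both other groups. It rose against Cpr-lox (0.45 ± 0.07, adjusted p = 0.00196) and was above Cpr-low (0.32 ± 0.07, adjusted p = 0.0146). Slc25a37 (mitoferrin), a mitochondrial iron importer best known in erythroid cells, rose in liver-Cpr-null (0.47 ± 0.10, adjusted p = 0.0142), from 226 ± 37.5 to 317 ± 24.8. The Slc25a10 rise was lost with the first round or all 3 rounds as a block (adjusted p between 0.0637 and 0.101). Its difference from Cpr-low was lost under quantile scaling, with all 3 rounds as a block, within the second round, over the mean of its probe sets or without liver-Cpr-null pools 1 or 3 (adjusted p between 0.0535 and 0.15). The Slc25a37 call was lost with the first round or all 3 rounds as a block or without Cpr-lox pools 1 or 2 or liver-Cpr-null pool 1 (adjusted p between 0.0645 and 0.25).

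Slc25a47, a liver-enriched member of the mitochondrial family, fell in Cpr-low, with signals of 9697, 10789 and 8859 in the Cpr-lox pools, 5432, 7446 and 7975 in the Cpr-low pools and 9357, 9745 and 7942 in the liver-Cpr-null pools. All Cpr-low pools lay below all Cpr-lox pools, while liver-Cpr-null overlapped both, and the change against Cpr-lox was -0.51 ± 0.13, adjusted p = 0.0372. The Slc25a47 call was lost under median or quantile or deposited scaling or without Cpr-lox pools 1 or 2 or Cpr-low pools 1 or 2 (adjusted p between 0.0524 and 0.161). Slc25a25, which moves ATP-magnesium against phosphate and is outside the rule that chose the genes to name, fell in liver-Cpr-null from 1361 ± 267 to 949 ± 61.6 (-0.50 ± 0.12, adjusted p = 0.0255). The Slc25a25 call was lost under median or deposited scaling, with the first round or all 3 rounds as a block or without Cpr-lox pools 2 or 3 or liver-Cpr-null pools 1 or 3 (adjusted p between 0.0556 and 0.182). Slc25a23, of the same ATP-magnesium group, and Slc25a17, a carrier of the peroxisomal membrane, were lower in liver-Cpr-null than in Cpr-low, at -0.35 ± 0.09, adjusted p = 0.0397 and -0.32 ± 0.07, adjusted p = 0.0184. The Slc25a23 call was lost under median or deposited scaling, with all 3 rounds as a block, within the second round or without Cpr-lox pool 1, Cpr-low pools 2 or 3 or liver-Cpr-null pools 1, 2 or 3 (adjusted p between 0.0501 and 0.243). The Slc25a17 call was lost under median or deposited scaling, with all 3 rounds as a block, within the second round or without Cpr-low pool 2 or liver-Cpr-null pools 2 or 3 (adjusted p between 0.0518 and 0.132). Slc25a39 and Slc25a15, the ornithine carrier of the urea cycle, passed in no comparison, with Slc25a15 at 5097 ± 861 in Cpr-lox, 4443 ± 61.9 in Cpr-low and 4209 ± 61.9 in liver-Cpr-null. Slc25a15 was lower in liver-Cpr-null than in Cpr-lox without Cpr-lox pool 1 (adjusted p = 0.0329).

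**Figure D3:**
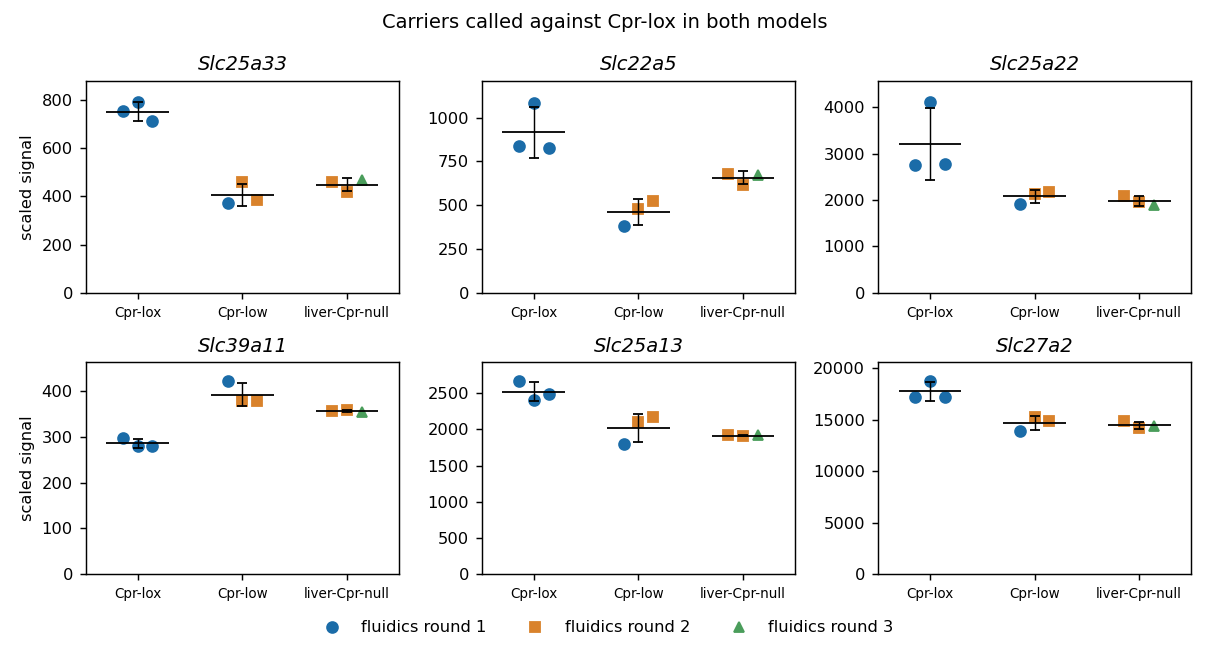
Scaled signal of the 6 carriers called against Cpr-lox in both models, 1 point a pool, with the mean and SD of 3 pools and the fluidics round by colour and shape. Slc25a33, Slc22a5, Slc25a22, Slc25a13 and Slc27a2 are lower in both models and Slc39a11 is higher in both, with no pool of either model overlapping Cpr-lox.

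Among amino acid and peptide carriers the largest difference was that of Slc3a1 (rBAT), the heavy subunit of the exchanger of cystine and dibasic amino acids. Its signals were 581, 566 and 913 in the Cpr-lox pools, 739.7, 865 and 698 in the Cpr-low pools and 332, 363 and 414 in the liver-Cpr-null pools. All liver-Cpr-null pools lay below all others, while Cpr-lox and Cpr-low overlapped and Cpr-lox pool 3 stood high. It was lower in liver-Cpr-null than in Cpr-low (-1.02 ± 0.16, adjusted p = 0.00162), under all 23 alternatives, and than in Cpr-lox (-0.84 ± 0.16, adjusted p = 0.00538). The call against Cpr-lox was lost with the first round or all 3 rounds as a block (adjusted p between 0.138 and 0.141). Both round blocks left the sign in place.

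Slc7a2 (CAT2), a carrier of arginine and lysine, fell in Cpr-low and not detectably in liver-Cpr-null, with signals of 674, 898 and 733 in the Cpr-lox pools, 444, 514 and 524 in the Cpr-low pools and 704, 871 and 802 in the liver-Cpr-null pools. The Cpr-low pools lay below all others and liver-Cpr-null overlapped Cpr-lox. The fall was -0.62 ± 0.11, adjusted p = 0.00603, under all 22 alternatives, and liver-Cpr-null was above Cpr-low (0.66 ± 0.11, adjusted p = 0.00322). A second probe set of Slc7a2 was called in both comparisons, at -0.59 ± 0.10 (adjusted p = 0.00347) and 0.58 ± 0.10 (adjusted p = 0.00334). The difference between the models was lost within the second round (adjusted p = 0.0618).

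Slc38a2 (SNAT2), a sodium-coupled importer of small neutral amino acids, fell in liver-Cpr-null (-0.66 ± 0.15, adjusted p = 0.0207), from 916 ± 130.4 to 573 ± 58.2, with 724 ± 175 in Cpr-low. The Slc38a2 call was lost under median or deposited scaling or without Cpr-lox pools 2 or 3 or liver-Cpr-null pool 2 (adjusted p between 0.0508 and 0.104). With the first round as a block its log2 fold change was -1.23 ± 0.21. The brightest carriers of this class, the glutamine carrier Slc38a3 and the neutral amino acid carrier Slc38a4, passed in no comparison in the fit without a block. Slc38a3 had 7218 ± 1074 in Cpr-lox, 8803 ± 1364 in Cpr-low and 6715 ± 145 in liver-Cpr-null, and Slc38a4 had 6747 ± 42.3 in Cpr-lox, 7068 ± 115 in Cpr-low and 6911 ± 223 in liver-Cpr-null. Slc38a3 was higher in Cpr-low than in Cpr-lox with the first round or all 3 rounds as a block (adjusted p between 0.0282 and 0.0431), at 0.53 ± 0.13, adjusted p = 0.0282 with the first round as a block. It was lower in liver-Cpr-null than in Cpr-low without Cpr-lox pools 1 or 2 or Cpr-low pool 3 (adjusted p between 0.0373 and 0.0413). Slc3a2, the heavy subunit of several exchangers, had 649.6 ± 69.9 in Cpr-lox, 629.5 ± 24.5 in Cpr-low and 573 ± 47.3 in liver-Cpr-null. In all 26 of 29 genes of the class passed in no comparison.

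Of the sugar carriers, Slc2a1 (GLUT1), a glucose carrier low in hepatocytes, fell in liver-Cpr-null from 204 ± 10.2 to 157 ± 13.9 (-0.35 ± 0.08, adjusted p = 0.0136). The Slc2a1 call was lost with the first round or all 3 rounds as a block or without liver-Cpr-null pools 2 or 3 (adjusted p between 0.0536 and 0.313). Slc2a3 (GLUT3), another high-affinity glucose carrier, and Slc2a9, a urate carrier that is also outside the naming rule, were lower in liver-Cpr-null than in Cpr-low, at -0.43 ± 0.10, adjusted p = 0.0243 and -0.35 ± 0.10, adjusted p = 0.0475. The Slc2a3 call was lost with all 3 rounds as a block, within the second round or without liver-Cpr-null pools 1, 2 or 3 (adjusted p between 0.0645 and 0.124). The Slc2a9 call was lost under median or quantile or deposited scaling, with the first round or all 3 rounds as a block, within the later rounds, within the second round, with no filter or without Cpr-lox pools 1 or 2, Cpr-low pools 1, 2 or 3 or liver-Cpr-null pools 1 or 2 (adjusted p between 0.0519 and 0.222). Slc2a2 (GLUT2), the main glucose carrier of hepatocytes, had signals of 2573, 1757 and 2379.6 in the Cpr-lox pools, 2531, 2659.6 and 3878 in the Cpr-low pools and 3400.4, 2780.3 and 3308 in the liver-Cpr-null pools. All liver-Cpr-null pools lay above all Cpr-lox pools, Cpr-low overlapped both, and the test was not passed (0.51 ± 0.16, adjusted p = 0.0883 in liver-Cpr-null and 0.42 ± 0.16, adjusted p = 0.186 in Cpr-low). The liver-Cpr-null difference passed without Cpr-low pool 3 (adjusted p = 0.0287). With the first round as a block it was 0.17 ± 0.29, adjusted p = 0.777, and that in Cpr-low was 0.20 ± 0.23, adjusted p = 0.538. Slc37a4, which carries glucose 6-phosphate into the endoplasmic reticulum, had 3376 ± 240.4 in Cpr-lox, 3043 ± 251 in Cpr-low and 3542 ± 111 in liver-Cpr-null.

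Slc16a7 (MCT2), a carrier of lactate, pyruvate and ketone bodies, was the 1 carboxylate carrier of 7 that passed. Its signals were 431, 296 and 361 in the Cpr-lox pools, 268, 301 and 350.2 in the Cpr-low pools and 491, 605 and 567 in the liver-Cpr-null pools. The liver-Cpr-null pools lay above all others, and Cpr-lox and Cpr-low overlapped. It was higher than in Cpr-low (0.83 ± 0.13, adjusted p = 0.00195), under all 23 alternatives, and than in Cpr-lox (0.60 ± 0.13, adjusted p = 0.013). The call against Cpr-lox was lost with the first round or all 3 rounds as a block or without Cpr-lox pool 2 or liver-Cpr-null pool 2 (adjusted p between 0.0541 and 0.512). Slc16a1 (MCT1), a related monocarboxylate carrier, had 523 ± 18.9 in Cpr-lox, 442 ± 87.9 in Cpr-low and 578 ± 28.7 in liver-Cpr-null, with -0.25 ± 0.12, adjusted p = 0.286 in Cpr-low against Cpr-lox. That difference passed with the first round or all 3 rounds as a block or within the first round (adjusted p between 0.00529 and 0.0168), at -0.60 ± 0.09, adjusted p = 0.00529 with the first round as a block. The difference between the models passed without Cpr-low pool 3 (adjusted p = 0.0356).

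Organic ion carriers differed in opposite directions. Slc22a30, a rodent member of the organic anion transporter family, rose in Cpr-low, with signals of 637, 403 and 619.8 in the Cpr-lox pools, 880.0, 1133 and 1228 in the Cpr-low pools and 619, 572 and 720.0 in the liver-Cpr-null pools. The Cpr-low pools lay above all others. The rise was 0.96 ± 0.16, adjusted p = 0.00375, and liver-Cpr-null was below Cpr-low (-0.74 ± 0.16, adjusted p = 0.0148). The rise was lost with the first round or all 3 rounds as a block or within the first round (adjusted p between 0.0607 and 0.0968). The difference between the models was lost under median or deposited scaling or without Cpr-low pool 2 or liver-Cpr-null pools 1 or 2 (adjusted p between 0.0521 and 0.0789).

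Slc47a1 (MATE1), which exports organic cations into bile, rose in liver-Cpr-null, with signals of 1955, 1561 and 1814 in the Cpr-lox pools, 2067, 2169 and 2478 in the Cpr-low pools and 2682, 2395 and 2694 in the liver-Cpr-null pools. The Cpr-lox pools lay lowest, and the log2 fold change was 0.54 ± 0.10, adjusted p = 0.00467 in liver-Cpr-null and 0.33 ± 0.10, adjusted p = 0.0745 in Cpr-low. The Cpr-low difference passed without Cpr-lox pool 1 (adjusted p = 0.0492). The Slc47a1 call was lost with the first round or all 3 rounds as a block (adjusted p between 0.258 and 0.352). Slc17a2, a sodium-phosphate cotransporter relative that carries organic anions, fell in liver-Cpr-null (-0.69 ± 0.15, adjusted p = 0.0155), from 1672 ± 313 to 1021 ± 65.2, with 1385 ± 284 in Cpr-low. Slc22a23, a member of the organic ion family without an established substrate, was lower in liver-Cpr-null than in Cpr-lox (-0.39 ± 0.09, adjusted p = 0.0169) and than in Cpr-low (-0.39 ± 0.09, adjusted p = 0.0162). The Slc17a2 call was lost under median or deposited scaling, over the mean of its probe sets or without Cpr-lox pools 1 or 3 or liver-Cpr-null pools 1 or 2 (adjusted p between 0.0514 and 0.0974). The Slc22a23 call against Cpr-lox was lost under median or deposited scaling, with all 3 rounds as a block or without Cpr-lox pools 1 or 3 or liver-Cpr-null pools 1, 2 or 3 (adjusted p between 0.0516 and 0.121). Its call against Cpr-low was lost under median or deposited scaling or without Cpr-low pool 2 or liver-Cpr-null pools 1, 2 or 3 (adjusted p between 0.0501 and 0.139). Slc22a7 (OAT2), a sinusoidal organic anion transporter, was lower in liver-Cpr-null than in Cpr-low (-0.43 ± 0.12, adjusted p = 0.0442), a call lost under 14 of 23 alternatives.

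**Figure D4:**
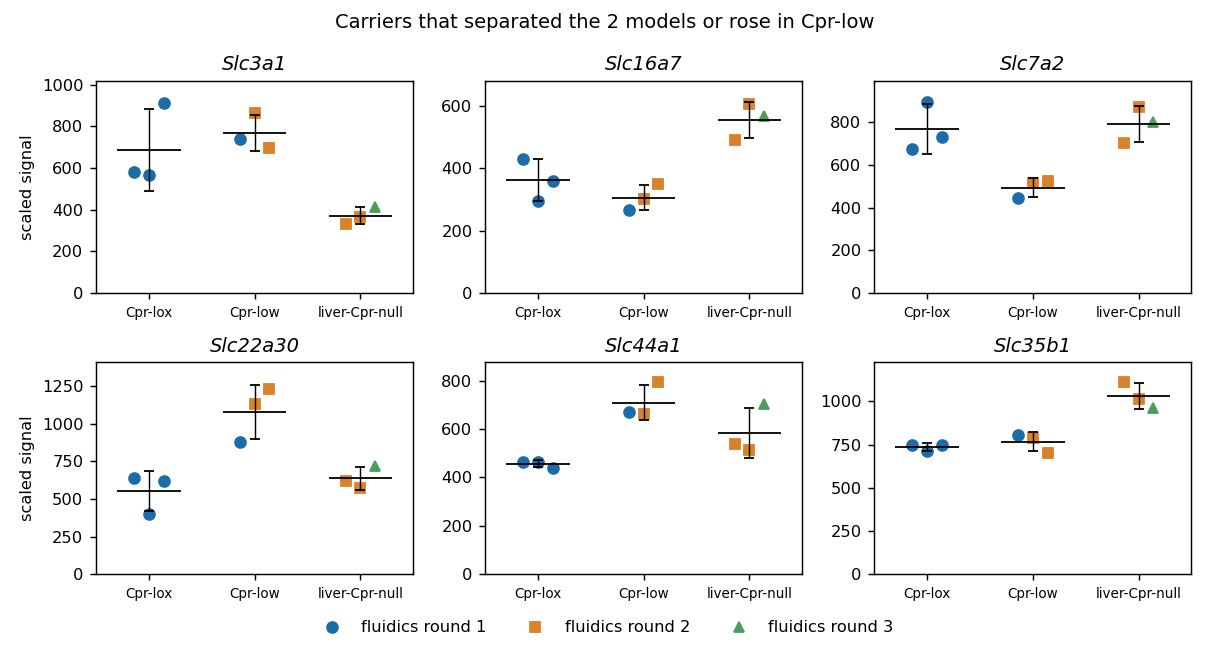
Scaled signal of 6 carriers that separated the models or rose in Cpr-low, 1 point a pool, with the mean and SD of 3 pools and the fluidics round by colour and shape. Slc3a1 is lowest and Slc16a7 and Slc35b1 are highest in liver-Cpr-null, Slc7a2 is lowest and Slc22a30 highest in Cpr-low, and Slc44a1 is higher in Cpr-low than in Cpr-lox.

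In the metal class, Slc39a11 (ZIP11), a zinc importer family member, was the 1 carrier that rose in both models. Its signals were 297, 281 and 281 in the Cpr-lox pools, 421, 379 and 377 in the Cpr-low pools and 357, 359 and 354 in the liver-Cpr-null pools, with all Cpr-lox pools lowest. The rise was 0.43 ± 0.07, adjusted p = 0.00224 in Cpr-low, under all 22 alternatives, and 0.30 ± 0.07, adjusted p = 0.0172 in liver-Cpr-null. The liver-Cpr-null rise was lost with the first round or all 3 rounds as a block or without Cpr-lox pool 2 or liver-Cpr-null pools 1, 2 or 3 (adjusted p between 0.0551 and 0.0855). Slc39a1 (ZIP1), a zinc importer of the plasma membrane, went the other way. It was lower in liver-Cpr-null than in Cpr-lox (-0.41 ± 0.09, adjusted p = 0.0173) and than in Cpr-low (-0.33 ± 0.09, adjusted p = 0.0457), at 1706 ± 92.8 in Cpr-lox, 1617 ± 169.5 in Cpr-low and 1278 ± 113 in liver-Cpr-null. The Slc39a1 call against Cpr-lox was lost under median or deposited scaling, with the first round as a block or without Cpr-lox pools 1 or 3 or liver-Cpr-null pools 1 or 2 (adjusted p between 0.0592 and 0.121). Its call against Cpr-low was lost under median or deposited scaling, within the later rounds, within the second round, with no filter or without Cpr-lox pools 1, 2 or 3, Cpr-low pools 2 or 3 or liver-Cpr-null pools 1 or 2 (adjusted p between 0.0505 and 0.263).

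Slc39a4 (ZIP4), a zinc importer best known in the intestine, was lower in liver-Cpr-null than in Cpr-low (-0.36 ± 0.08, adjusted p = 0.012), and Slc39a7 (ZIP7), which releases zinc from the endoplasmic reticulum, was higher (0.29 ± 0.08, adjusted p = 0.0301). The Slc39a4 call was lost under median scaling, within the second round or without liver-Cpr-null pool 2 (adjusted p between 0.0604 and 0.0826). The Slc39a7 call was lost within the later rounds, within the second round or without Cpr-low pools 2 or 3 or liver-Cpr-null pools 1 or 2 (adjusted p between 0.0611 and 0.135). Slc39a14 (ZIP14), the hepatocyte importer of zinc and iron, had signals of 841, 999.5 and 1046 in the Cpr-lox pools, 1088, 1188 and 1528 in the Cpr-low pools and 999, 962 and 909.5 in the liver-Cpr-null pools. All Cpr-low pools lay above all others, though the test against Cpr-lox was not passed (0.38 ± 0.12, adjusted p = 0.0888). It passed under quantile scaling or without Cpr-low pool 1 (adjusted p between 0.0478 and 0.0491), and was 0.18 ± 0.15, adjusted p = 0.404 with the first round as a block. Slc39a14 was lower in liver-Cpr-null than in Cpr-low under quantile scaling, with the first round as a block or without Cpr-low pool 1 (adjusted p between 0.0332 and 0.0385). The zinc exporter Slc30a1 had 371 ± 18.4 in Cpr-lox, 324 ± 23.8 in Cpr-low and 323 ± 14 in liver-Cpr-null, and the iron exporter Slc40a1 (ferroportin), which is also expressed by Kupffer cells, had 1785 ± 242 in Cpr-lox, 1959.7 ± 261 in Cpr-low and 2045 ± 15.3 in liver-Cpr-null, and neither passed in any comparison, although Slc30a1 was lower in Cpr-low than in Cpr-lox under median scaling (adjusted p = 0.0391). Of the 25 metal carriers 21 passed in no comparison.

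The class of nucleotide sugars and acetyl-CoA had 2 called genes, both of which rose in liver-Cpr-null. Membership follows the gene family, and neither gene is described here as carrying nucleotide sugars. Slc35b1, which exchanges ATP and ADP across the membrane of the endoplasmic reticulum, had signals of 746, 709.9 and 750.3 in the Cpr-lox pools, 804, 789 and 703 in the Cpr-low pools and 1113, 1015 and 964 in the liver-Cpr-null pools. The liver-Cpr-null pools lay above all others, at 0.48 ± 0.08, adjusted p = 0.00332 against Cpr-lox and 0.42 ± 0.08, adjusted p = 0.00737 against Cpr-low. The call against Cpr-lox was lost with the first round or all 3 rounds as a block (adjusted p between 0.0654 and 0.066). The call against Cpr-low was lost within the second round (adjusted p = 0.0576). Slc35f5, a family member without an established substrate and outside the naming rule, rose from 237 ± 17.5 to 306 ± 25.9 (0.35 ± 0.08, adjusted p = 0.0226). The Slc35f5 call was lost under median scaling, with the first round or all 3 rounds as a block or without Cpr-lox pools 1 or 2 or liver-Cpr-null pools 1 or 3 (adjusted p between 0.0547 and 0.435). The brightest member, Slc35b2, which carries the sulfate donor PAPS into the Golgi, had 1358 ± 63.6 in Cpr-lox, 1550.4 ± 145 in Cpr-low and 1429 ± 35.1 in liver-Cpr-null. It was called in no comparison, but was higher in Cpr-low than in Cpr-lox with the first round as a block (adjusted p = 0.0431).

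Slc44a1 (CTL1), a choline transporter of the plasma membrane and mitochondria, rose in Cpr-low, with signals of 466, 463 and 439.5 in the Cpr-lox pools, 670.1, 662 and 792 in the Cpr-low pools and 539.9, 512 and 703 in the liver-Cpr-null pools. All pools of both models lay above all Cpr-lox pools. The rise was 0.61 ± 0.11, adjusted p = 0.00543 in Cpr-low, under all 22 alternatives, while the test was not passed in liver-Cpr-null (0.34 ± 0.11, adjusted p = 0.0996). On the fainter probe set of Slc44a1, the Cpr-low change had the same sign but was smaller, at 0.17 ± 0.08, and was not called (adjusted p = 0.286). Slc29a1 (ENT1), an equilibrative nucleoside transporter, also rose in Cpr-low (0.37 ± 0.09, adjusted p = 0.0267), from 773 ± 40.8 to 1002 ± 66.1. The Slc29a1 call was lost under median or deposited scaling, with the first round or all 3 rounds as a block, within the first round or without Cpr-lox pools 1 or 2 or Cpr-low pools 1 or 3 (adjusted p between 0.0632 and 0.14). Slc19a2, a thiamine transporter, had 882 ± 116 in Cpr-lox, 969 ± 17.7 in Cpr-low and 764 ± 114 in liver-Cpr-null and passed in no comparison. It was lower in liver-Cpr-null than in Cpr-low over the mean of its probe sets or without liver-Cpr-null pool 3 (adjusted p between 0.0368 and 0.048).

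Inorganic ion carriers passed in neither comparison with Cpr-lox, and 2 of 24 were higher in liver-Cpr-null than in Cpr-low. Slc20a1 (PiT1), a sodium-phosphate cotransporter, had signals of 367, 469.9 and 531 in the Cpr-lox pools, 260.1, 247 and 325 in the Cpr-low pools and 594, 508 and 309 in the liver-Cpr-null pools. All Cpr-low pools lay below all Cpr-lox pools, and liver-Cpr-null overlapped both. Liver-Cpr-null was above Cpr-low (0.69 ± 0.20, adjusted p = 0.0484), and the difference of Cpr-low from Cpr-lox did not pass (-0.68 ± 0.20, adjusted p = 0.0657). The latter passed with all 3 rounds as a block, within the first round or without Cpr-lox pool 1 or liver-Cpr-null pools 1 or 3 (adjusted p between 0.011 and 0.0437). The Slc20a1 call was lost under median or deposited scaling, with the first round as a block, within the later rounds, over the mean of its probe sets, with no filter, with no intensity trend or without Cpr-lox pool 2, Cpr-low pools 1 or 2 or liver-Cpr-null pools 1 or 2 (adjusted p between 0.05 and 0.189). Slc4a4, a sodium-bicarbonate cotransporter, was higher in liver-Cpr-null than in Cpr-low by its brightest probe set (0.39 ± 0.09, adjusted p = 0.022), while 2 dimmer probe sets had the opposite sign, at -0.27 ± 0.09 and -0.17 ± 0.09. The Slc4a4 call by its brightest probe set was lost with the first round or all 3 rounds as a block, within the later rounds, within the second round or without Cpr-low pool 1 or liver-Cpr-null pools 1 or 2 (adjusted p between 0.0599 and 0.103).

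The scaffold Slc9a3r1 (NHERF1), which anchors transporters to the apical membrane, rose in Cpr-low, with signals of 1955, 1563 and 1922 in the Cpr-lox pools, 3033, 2614 and 2869 in the Cpr-low pools and 2395, 2067 and 2169.7 in the liver-Cpr-null pools. The 3 groups were fully separate. The rise was 0.65 ± 0.10, adjusted p = 0.00183, under all 22 alternatives, and 2 further probe sets were called in the same direction, at 0.44 ± 0.10 (adjusted p = 0.025) and 0.57 ± 0.14 (adjusted p = 0.0313). Slc9a3r1 and its relative Slc9a3r2 were lower in liver-Cpr-null than in Cpr-low, at -0.36 ± 0.10, adjusted p = 0.0429 and -0.29 ± 0.08, adjusted p = 0.0365, calls lost under 12 of 23 and 14 of 23 alternatives. Slc9a3r1 was the 1 accessory protein that passed against Cpr-lox.

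With the fluidics round in the fit, calls were lost mainly in liver-Cpr-null. With the first round as a block, 7 carriers were called in liver-Cpr-null against Cpr-lox, all lower, 3.68% against a background of 1.68%, and 6 of the 19 calls were kept. Those 6 were Slc17a2, Slc22a23, Slc22a5, Slc25a13, Slc25a33 and Slc38a2. The other call was Slc25a51, an NAD carrier of mitochondria and outside the naming rule. No rise was called in that fit. In Cpr-low against Cpr-lox the block raised the count to 23, 12.1% against a background of 12.3%, and 10 of the 12 calls were kept, with Slc22a30 and Slc29a1 lost. Another 13 carriers were called there that were not called without the block, 10 higher and 3 lower. The 3 lower were Slc16a1, Slc17a2 (-0.63 ± 0.17, adjusted p = 0.0376) and Slc38a2 (-0.73 ± 0.16, adjusted p = 0.02), and among the higher were Slc38a3, Slc35b2, Slc2a3 (0.58 ± 0.09, adjusted p = 0.00423) and Slc22a7 (0.50 ± 0.13, adjusted p = 0.0336). Within the first round alone, with 1 Cpr-low pool against 3 Cpr-lox pools and that lone pool assumed to vary like the others, 14 carriers were called (background 4.98%), among them 8 of the 12. Between the models the block gave 18 calls (background 5.79%), 13 of the 20 kept and 5 further carriers lower in liver-Cpr-null, Slc17a2 (-0.59 ± 0.13, adjusted p = 0.0277), Slc38a2 (-0.50 ± 0.13, adjusted p = 0.049), Slc39a14, Slc25a51 and Slc39a8. The arrays of the later rounds alone gave 15 (background 5.27%), 12 of the 20 kept. Within the second round, with 2 pools a model, 6 were called (background 3.03%), 5 of them shared with the 20, Slc16a7, Slc20a1, Slc22a23, Slc22a30 and Slc3a1. Every called carrier kept its sign in each of these fits.

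**Figure D5:**
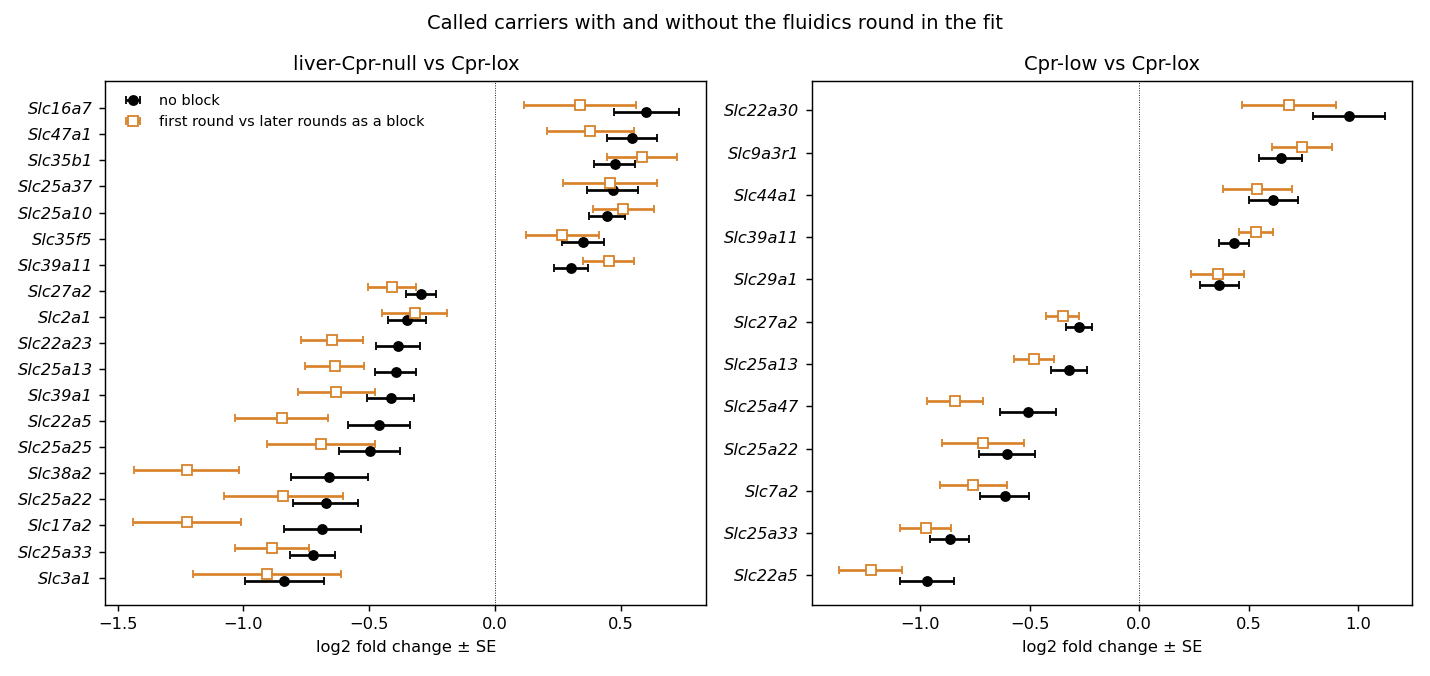
Log2 fold change ± SE of the carriers called in liver-Cpr-null (left, 19 genes) and in Cpr-low (right, 12 genes) against Cpr-lox, without a block (filled circles) and with the first fluidics round against later rounds as a block (open squares). All signs are kept, and the errors of all 19 genes in liver-Cpr-null are wider with the block.

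Genes that work with these carriers were taken from 5 lists. Their calls are those of the fit without a block, and results under the alternatives are not given for them. Over all tested genes, 7.1% were called in liver-Cpr-null against Cpr-lox in that fit and 1.68% with the first round as a block. Of 6 tested genes of the sodium gradient and of carrier partners, Bsg (basigin, the chaperone of monocarboxylate carriers) rose in liver-Cpr-null (0.34 ± 0.09, adjusted p = 0.0337) and Atp1b1, a subunit of the sodium pump, fell (-0.43 ± 0.10, adjusted p = 0.0207). None of the 6 was called in Cpr-low against Cpr-lox. Of 9 tested metal-handling genes, the metallothioneins Mt1 and Mt2, which bind zinc, fell in Cpr-low, at -0.88 ± 0.23, adjusted p = 0.041 and -1.15 ± 0.24, adjusted p = 0.0127, and Hamp and Hamp2, the hepcidin genes that limit iron export, rose (0.37 ± 0.10, adjusted p = 0.0417 and 0.91 ± 0.14, adjusted p = 0.00228). The Mt1 pools of Cpr-low and Cpr-lox overlapped, with Cpr-low pool 3 at 5905 and Cpr-lox pool 1 at 5757, while those of Mt2 did not. In liver-Cpr-null the 1 metal call was a rise of the ferritin subunit Fth1 (0.35 ± 0.06, adjusted p = 0.00228).

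Of 6 tested sugar-handling genes, Gys2, liver glycogen synthase, fell in both models (-0.68 ± 0.10, adjusted p = 0.00133 in liver-Cpr-null and -0.63 ± 0.10, adjusted p = 0.0027 in Cpr-low), and Khk, ketohexokinase, and Pklr, liver pyruvate kinase, rose in Cpr-low (0.59 ± 0.09, adjusted p = 0.00178 and 0.29 ± 0.08, adjusted p = 0.0468). Of 8 tested amino acid genes 2 rose and 1 fell in liver-Cpr-null, the asparagine synthetase gene Asns (1.70 ± 0.22, adjusted p = 0.000501) and the ornithine aminotransferase gene Oat (0.49 ± 0.08, adjusted p = 0.00201) upwards and Tat, tyrosine aminotransferase, downwards (-0.46 ± 0.13, adjusted p = 0.042), while in Cpr-low the 1 call was a fall of Asl, argininosuccinate lyase (-0.40 ± 0.10, adjusted p = 0.028). Other membrane transport genes of liver gave 6 of 14 higher and 1 lower in liver-Cpr-null and 3 higher and 1 lower in Cpr-low. The whole-table backgrounds are 3.66% and 3.44% in the first and 2.31% and 3.48% in the second.

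Of the 5 carriers left out by name 4 were tested, and they too are given in the fit without a block alone. Slc27a5, a bile acid and fatty acyl-CoA ligase, was lower in liver-Cpr-null than in Cpr-lox (-0.29 ± 0.07, adjusted p = 0.0315) and than in Cpr-low (-0.47 ± 0.07, adjusted p = 0.00191). Slc25a20, the mitochondrial carnitine and acylcarnitine carrier, fell in Cpr-low, from 2751 ± 272 to 1726 ± 114 (-0.67 ± 0.10, adjusted p = 0.00187), as Slc22a5 did. Slc10a1, the sodium-taurocholate cotransporter, and Slc1a2, a glutamate carrier, passed in no comparison.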

How the data were processed

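Per the file headers, the deposited values are signal intensities on a linear scale, 1 per probe set and array. The authors' probe summary, background step and scaling are not given in the sources used here. Signals were scaled to a common 2% trimmed mean over non-control probe sets and taken as log2(signal + 16), which understates changes of dim genes. Gene symbols are those of GEO's platform annotation. All 190 members matched RefSeq by gene number. Of 22690 probe sets 691 had several symbols, 3 with a carrier among them, and were not named. The brightest kept probe set stood for its gene. A single limma 3.58.1 model (R 4.3.3) of 9 arrays and 8879 genes used moderated two-sided tests with a trend in intensity and Benjamini-Hochberg adjustment. It was checked on simulated data that held no fluidics rounds, so the check does not cover them. Carriers named were called genes (at most the 15 with the smallest adjusted p a comparison), the brightest and most changed of each class, and fixed hepatic reference genes. Members and lists were chosen with earlier results of these data known. Signals are given per pool or as mean ± SD over n = 3 pools, and fold changes on the log2 scale ± SE. The number of arrays limits the precision. Alternatives changed the pseudocount, scaling, filter, trend, probe set, block and pools. The round blocks over 3 rounds and within the second round were chosen after seeing the data. Same-numbered pools of different models deviated together with correlations of -0.21 to 0.465, so pool numbers were not taken as pairs. The Cpr gene itself is not analysed here. Figures used matplotlib 3.10.9 (Python 3.11.15).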

Additional observations from a re-analysis of the deposited data

How the results depend on the processing

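Changing the pseudocount, the filter or the intensity trend, or taking the mean of probe sets, left each count of called carriers within 1.5 times its value, and so did quantile normalization. Median scaling gave 12 calls in liver-Cpr-null against Cpr-lox and 11 between the models, and the deposited scaling gave 11 between the models. With the first round as a block the counts were 7 in liver-Cpr-null and 23 in Cpr-low against Cpr-lox. With all 3 rounds as a block they were 5, 21 and, between the models, 13, and within the second round the models differed in 6. Leaving out 1 pool at a time gave 11 to 21 calls in liver-Cpr-null, 8 to 13 in Cpr-low and 6 to 22 between the models. With the pool number as a replicate block the counts were 24, 15 and 30, against 19, 12 and 20, although pool numbers do not pair the pools. Of 1628 values of named carriers under alternatives, 264 lost their call, 56 gained one and 1 reversed, Slc4a4 between the models, at -0.014 over the mean of its probe sets. The cause of these shifts was not tested. The number of arrays, 3 a model, limits what the comparisons can detect, and changes of dim carriers are understated.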

Other observations

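Among the 67 carriers below the brightness threshold, 3 passed in at least 1 comparison in a fit without the filter, 4.48% against 1.68% of all 3514 genes below the threshold, and they were chosen after their values were seen. Slc44a2, a choline transporter-like protein, fell in Cpr-low (-0.33 ± 0.07, adjusted p = 0.0195), from 104 ± 4.19 to 79.5 ± 5.05, whereas its relative Slc44a1 rose there, and it was higher in liver-Cpr-null than in Cpr-low (0.29 ± 0.07, adjusted p = 0.0319). Slc15a3, a lysosomal peptide and histidine carrier of immune cells, was higher in liver-Cpr-null than in Cpr-low (0.31 ± 0.08, adjusted p = 0.041), at 67.8 ± 1.57 in Cpr-lox, 66.9 ± 2.89 in Cpr-low and 87.6 ± 14.5 in liver-Cpr-null. Slc41a2, a magnesium carrier, was lower (-0.30 ± 0.08, adjusted p = 0.0434). All 3 are dim, so their fold changes are understated.

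Dimmer probe sets of 9 carriers passed in a comparison where the brightest did not, 15.5% of the 58 carriers with more than 1 tested probe set, against 9.04% of 2500 such genes in all. For liver-Cpr-null against Cpr-low these shares were 13.8% (8 carriers) and 5.12%, and for liver-Cpr-null against Cpr-lox 1.72% (1 carrier) and 3.56%. Of these Slc38a10, a relative of the neutral amino acid carriers, had the lowest adjusted p, with a second probe set at 0.60 ± 0.10, adjusted p = 0.00397 in liver-Cpr-null against Cpr-low, beside 0.25 ± 0.09, adjusted p = 0.0981 for its brightest. A second probe set of Slc66a2 was the 1 such call against Cpr-lox, at 0.35 ± 0.09, adjusted p = 0.0299 in liver-Cpr-null, beside 0.26 ± 0.12, adjusted p = 0.253. Both genes were chosen after their values were seen, and which transcripts the probe sets measure was not examined.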
